A study of Mus musculus with 46 samples.

Results

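Mouse bone marrow-derived macrophages (BMDMs) that had been exposed to lipid A for 1 hr were compared with resting BMDMs, in the experiment labelled 1 of a series on SWI/SNF perturbation in macrophage activation. The comparison was set by the labels. It holds 4 of the 46 labelled samples of the series: wild-type (WT) control cells at 1 hr of lipid A (2 libraries) and WT control cells at 0 hr of lipid A, called resting here (2 libraries). For neither group do the labels name a SWI/SNF compound or a deleted allele, and they give no dose, strain, sex or age. BMDMs are macrophages grown from marrow precursors in culture. Lipid A is the membrane anchor of bacterial lipopolysaccharide (LPS) and binds the receptor TLR4. TLR4 signals through the adaptors MyD88 and TRIF to NF-kB, MAP kinases and IRF3, and in macrophages this starts, within minutes to hours, the transcription of cytokine, chemokine and feedback inhibitor genes.

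Messenger RNA was read from a stranded mRNA library as 50 bp single ends. The deposited values are TPM, reads per exon length scaled within each library. The listed values summed to 627588 and 624568 in the 1 hr libraries, against 600577 and 595799 in the resting libraries. Reads recovered from TPM and exon length numbered 21284161 and 10731681 in the 1 hr libraries, against 7015041 and 16700606 in the resting libraries. A transcript of 2000 bases with 3 reads would have 0.0984 to 0.298 TPM at these depths, which is the level up to which a gene listed at 0 may be present. The macrophage markers were present in all 4 libraries: the lysozyme gene Lyz2 had 33758 and 31917 TPM at 1 hr, against 40904 and 37633 TPM at rest, and the growth factor receptor gene Csf1r had 1510.5 and 1503 TPM at 1 hr, against 2208 and 2113 TPM at rest. The labels do not say whether the 2 libraries of a group came from separate cultures or mice. The p-values measure the spread between replicate libraries, which may be technical. That spread was estimated over 11 libraries of experiment 1. They include cells treated with ACBI1, BRM014 or BRDK98 at 4 hr of lipid A, which also entered the filter on low values.

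Some libraries stood apart from their replicate. In 1 hr replicate 1, 148 genes had at least 3 TPM and 10 times the highest of the other 3 libraries (0.1 TPM added), against 0 genes in 1 hr replicate 2 and 8 and 7 genes in the resting libraries. Col1a1, a fibrillar collagen gene, had 56.2 and 0.044 TPM at 1 hr, against 0.101 and 0 TPM at rest. The matrix protein gene Sparc had 118 and 0.098 TPM at 1 hr, against 0.076 and 0 TPM at rest, and the epithelial keratin gene Krt8 had 34 and 0 TPM at 1 hr, against 0 and 0 TPM at rest. The 9 stromal and endothelial markers summed to 158 and 3.21 TPM at 1 hr, against 6.23 and 4.79 TPM at rest, and the 10 erythroid and mast cell markers to 5.34 and 0.109 TPM at 1 hr, against 0.41 and 0.182 TPM at rest. Of the 148 genes, 12 passed the filter on low values, and of these limma called 0 in either direction (0 at an unadjusted p under 0.05, and 0 by voom on recovered reads). The rule that chose these genes sets the 2 libraries at 1 hr far apart, so a call was hardly possible. These counts of 0 therefore do not show what the feature did to other genes. Among the resting libraries, all 37 interferon response genes listed below were higher in replicate 1, by a median of 0.64 on the log2 scale, against 0.06 over all tested genes. The part of either feature in the results was not tested beyond the values given beside them.

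At 1 hr of lipid A the listed cytokine, chemokine and early transcription factor genes had risen almost as whole lists. A broad set of other genes, zinc finger genes foremost by share, had fallen. The lists and their members were chosen with earlier results of these data known, so the list counts describe the chosen members only. Of 11531 genes with at least 1 TPM in at least 2 libraries of the table, 1141 rose (9.9% of the tested genes) and 2219 fell (19.2%). A gene rose or fell if limma's adjusted p was under 0.05 with the same sign on TPM as deposited and again after median-ratio scaling. Both scalings were asked for because TPM are shares of a total, and the change of the median tested gene was -0.38 on the log2 scale. TPM as deposited alone gave 1142 higher and 6123 lower genes, and scaled TPM alone gave 2509 and 2219. Values in brackets after a gene symbol are log2 changes of TPM + 1 on TPM as deposited, 1 hr over resting, ± the standard error, and genes given so passed the test unless stated otherwise. Adding 1 makes these changes smaller than the ratio of the levels for genes near 0.

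On the scale of log2(TPM + 1) the increases reached further than the decreases. That scale limits a decrease to the resting value of the gene itself, while an increase has no such limit. Fallen genes had a median resting level of 12.6 TPM, so many of them could not have fallen by 4. The difference in reach is thus partly set by the scale. Of the risen genes 278 rose by at least 2 on the log2 scale, 69 by at least 4 and 6 by at least 8. Of the fallen genes 96 fell by at least 2 and 2 by at least 4. The median size was 0.99 among risen and 1.04 among fallen genes. At rest 172 of the risen genes were under 1 TPM and 23 were listed at 0 in both libraries. Risen genes together held 30.1% and 30.5% of all listed TPM at 1 hr, against 8.29% and 7.6% at rest. The 69 genes that rose by at least 4 held 11.6% and 12% of listed TPM at 1 hr, against 0.26% and 0.221% at rest. Without 1 hr replicate 1, the library with the stromal transcripts, 960 genes rose and 1705 fell, and 941 of the 1141 and 1590 of the 2219 were still called, with 0 in the opposite direction.

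**Figure D1:**
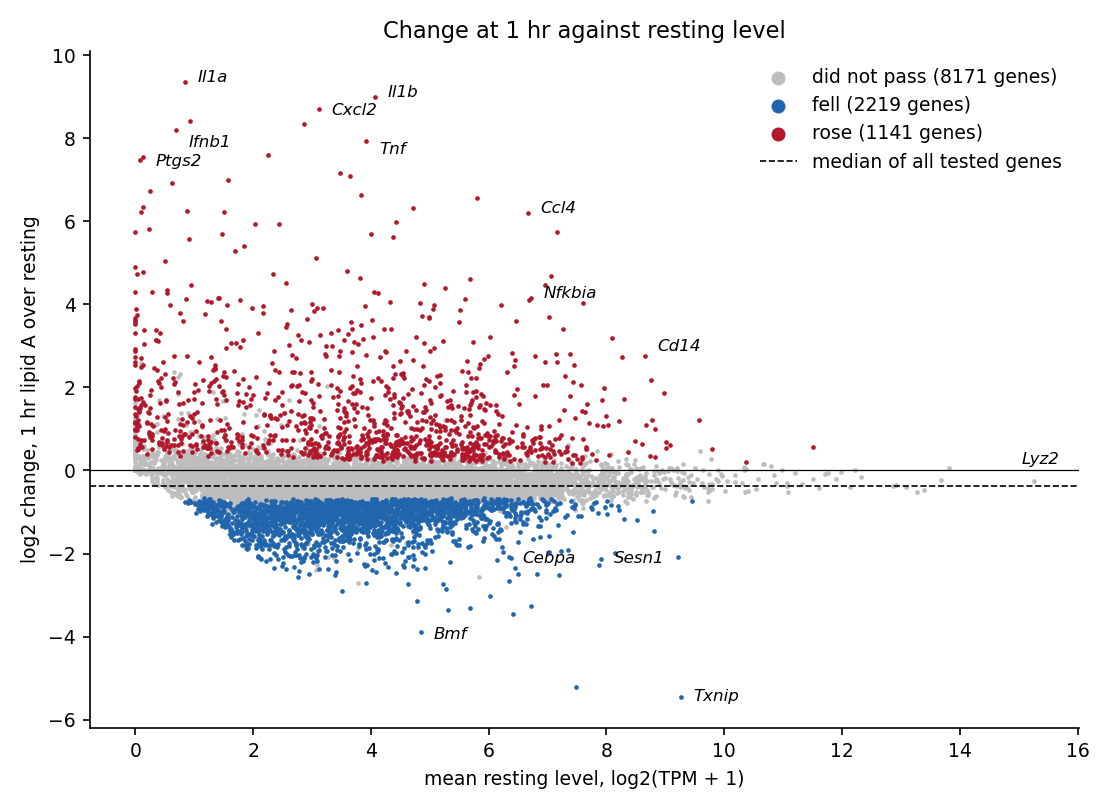
Each point is 1 of 11531 tested genes, with the mean resting level as log2(TPM + 1) on the x axis and the log2 change at 1 hr of lipid A over resting on the y axis. Red points rose (1141), blue points fell (2219), grey points did not pass, and the dashed line is the median of all genes at -0.38. The increases reach 9.36 and the decreases reach -5.45.

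Cytokine genes showed the largest changes. Of 20 tested inflammatory cytokine genes 18 rose and 2 did not pass, with a median log2 change of 4.52 against -0.38 over all tested genes. Their summed level was 16634 and 17403 TPM at 1 hr, against 167 and 131 TPM at rest. Il1b encodes the secreted pyrogen interleukin-1 beta and lies at chr2:129364578-129371139 (mm10, minus strand). It had 8431 and 8307 TPM at 1 hr, against 19.3 and 12.4 TPM at rest, a ratio of means of 529 (8.99 ± 0.16). Both 1 hr libraries were far above both resting libraries, and Il1b was among the genes with the most TPM in the stimulated cells. Il1a, which encodes the related cytokine interleukin-1 alpha at chr2:129299610-129309972 (minus strand), had 1144 and 1203 TPM at 1 hr, against 0.606 and 0.982 TPM at rest (9.36 ± 0.12). Reads were counted on both strands and 11.2% of its exons overlap the predicted gene Gm14023, which itself rose (6.92 ± 0.12), so the 2 cannot be fully told apart. Tnf, the tumour necrosis factor gene at chr17:35199367-35202007 (minus strand), had 3420.4 and 3955 TPM at 1 hr, against 15.9 and 12.5 TPM at rest (7.93 ± 0.12). The groups did not overlap for any of these genes, which held for 13.2% of tested genes in the direction of an increase and for 64.6% in that of a decrease.

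Other cytokine genes started near the limit of detection. Ifnb1, the interferon beta gene that TLR4 induces through IRF3, had 434 and 478 TPM at 1 hr, against 1.04 and 0.21 TPM at rest (8.18 ± 0.24). Il12b, which encodes the shared subunit of interleukins 12 and 23, had 197 and 178 TPM at 1 hr, against 0.08 and 0.032 TPM at rest (7.48 ± 0.11). The gene for the other interleukin-23 subunit, Il23a, had 27.6 and 30.3 TPM at 1 hr and was listed at 0 in both resting libraries, as were the colony-stimulating factor gene Csf2 (16.9 and 20.7 TPM at 1 hr) and the leukaemia inhibitory factor gene Lif (11.3 and 11.2 TPM at 1 hr). Il6 had 63.2 and 64.5 TPM at 1 hr, against 0.35 and 0 TPM at rest (5.80 ± 0.15). Among the risen cytokine genes named here, levels at 1 hr thus spanned from 11.2 TPM for Lif to 8431 TPM for Il1b. The anti-inflammatory cytokine gene Il10 had a measurable resting level, with 305 and 353 TPM at 1 hr, against 13.5 and 8.79 TPM at rest (4.79 ± 0.17). Tnfsf9, which encodes the 4-1BB ligand of T cell costimulation, had 2217 and 2464 TPM at 1 hr, against 7.29 and 5.19 TPM at rest (8.35 ± 0.12, with 14.9% of its exons overlapping another gene). Il18, an interleukin-1 family cytokine made constitutively, had 28.3 and 26 TPM at 1 hr, against 28.9 and 21.1 TPM at rest (0.13 ± 0.13), and Il12a had 0.155 and 0 TPM at 1 hr, against 0 and 0 TPM at rest (0.10 ± 0.21). Il12a passed the filter through other libraries of the table, and neither gene passed the test (limma, adjusted p = 0.394 and 0.679).

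Chemokine genes rose together with the cytokines. Of 17 tested CXC and CC chemokine genes 16 rose and 1 did not pass (median 4.30), and their summed level was 32408 and 33231 TPM at 1 hr, against 1232 and 915 TPM at rest. Of the 17, 16 were higher in resting replicate 1 than in resting replicate 2, by a median of 0.36. The neutrophil attractant gene Cxcl2 had 3399.6 and 3823 TPM at 1 hr, against 8.48 and 6.8 TPM at rest (8.71 ± 0.10), and its neighbour Cxcl1 had 598 and 691 TPM at 1 hr, against 1.05 and 0.768 TPM at rest (8.40 ± 0.12). Both lie in the CXC cluster on chromosome 5, at chr5:90903899-90905938 and chr5:90891245-90893115. The monocyte attractant gene Ccl2 had 4875 and 5566 TPM at 1 hr, against 65.2 and 44.8 TPM at rest (6.56 ± 0.19). Ccl4 and Ccl3, attractants of monocytes and T cells that resemble each other closely enough to share reads, had 7623 and 7182 TPM at 1 hr, against 113 and 87.7 TPM at rest (6.20 ± 0.11), and 7509 and 7801 TPM at 1 hr, against 159 and 126 TPM at rest (5.74 ± 0.11). Cxcl10, which interferon also induces, had 3192 and 2994 TPM at 1 hr, against 237 and 150.2 TPM at rest (4.03 ± 0.17). Ccl5 had 1196 and 1319 TPM at 1 hr, against 52.5 and 48.2 TPM at rest (4.62 ± 0.09), well short of its 6059.7 TPM in the single 4 hr library. The monocyte attractant gene Ccl8 did not pass, with 57 and 41.6 TPM at 1 hr, against 63.6 and 39.6 TPM at rest (-0.04 ± 0.33, limma adjusted p = 0.922), and its groups overlapped.

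**Figure D2:**
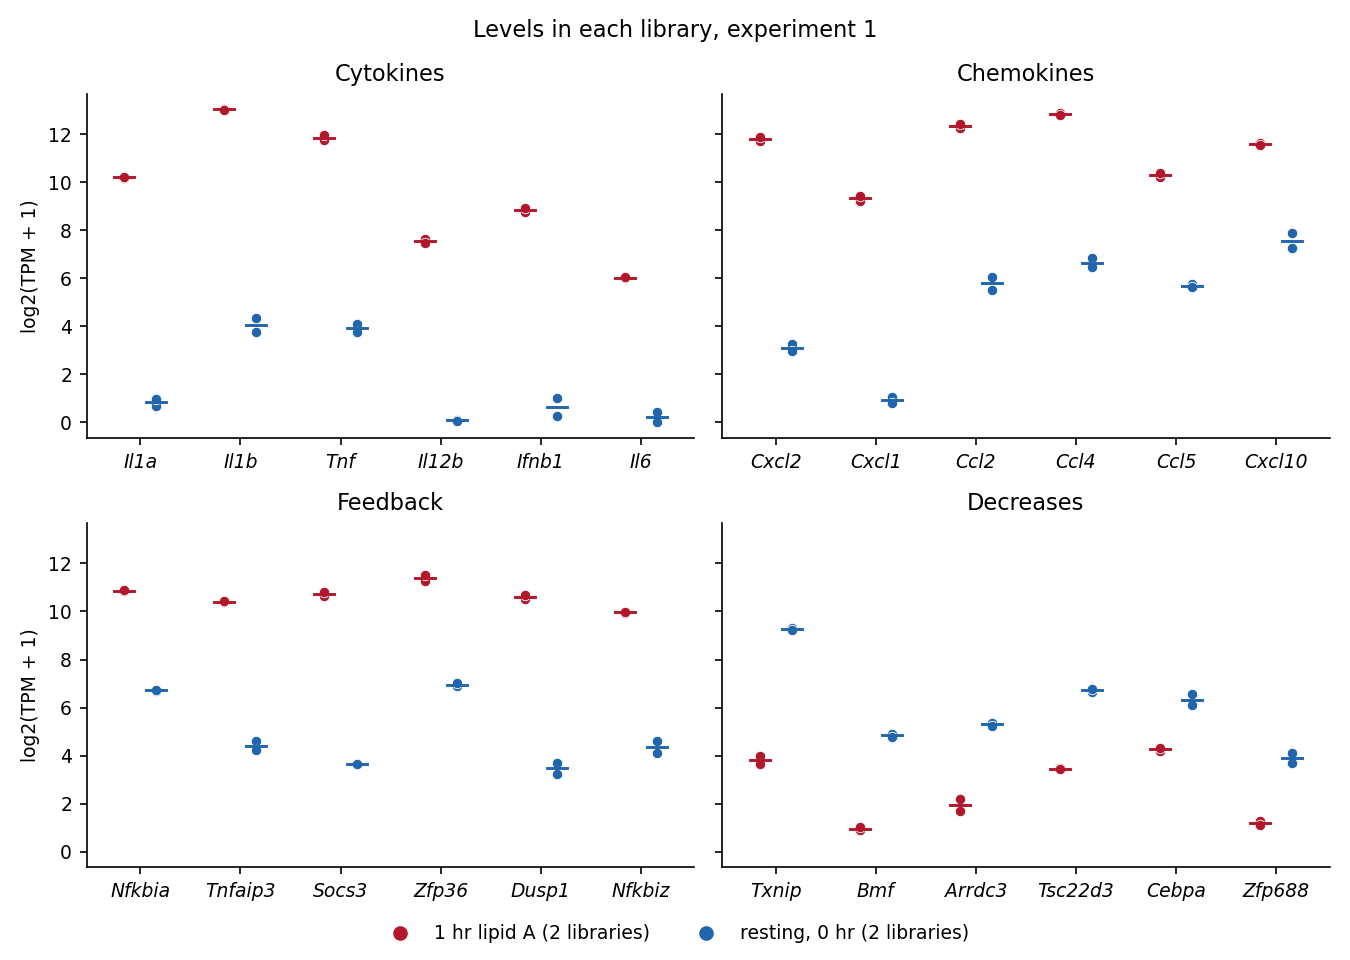
The y axis gives log2(TPM + 1) in each library for 24 named genes in 4 panels, with 1 hr of lipid A in red on the left of each pair and resting in blue on its right, and short lines at the group means (2 libraries each). In the 3 panels of cytokines, chemokines and feedback genes every 1 hr point is above every resting point, and in the panel of decreases every 1 hr point is below.

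The promoters of a few of these genes are shown because they carry, or lack, the short motifs of factors that TLR4 signalling is known to use. Each is 300 bases from RefSeq on build GRCm38.p6, 250 before and 50 after the annotated start, 5′ to 3′ on the gene's strand. Capitals mark matches to the NF-kB (kB) motif or to the exact TATA box letters TATAAA, on either strand and anywhere in the window. Cxcl2 (chr5:90903649-90903948, plus strand), Nfkbia (chr12:55492598-55492897, minus strand) and Ifnb1 (chr4:88522745-88523044, minus strand) hold a kB match. Tnf (chr17:35201958-35202257, minus strand) and Il1b (chr2:129371090-129371389, minus strand) hold a TATA match and no kB match in this window. Txnip (chr3:96557707-96558006, plus strand), the gene with the largest decrease, holds neither exact match. Its window does hold the similar letters TATATAAG shortly before the start, so it is not shown to lack a TATA box.
Cxcl2: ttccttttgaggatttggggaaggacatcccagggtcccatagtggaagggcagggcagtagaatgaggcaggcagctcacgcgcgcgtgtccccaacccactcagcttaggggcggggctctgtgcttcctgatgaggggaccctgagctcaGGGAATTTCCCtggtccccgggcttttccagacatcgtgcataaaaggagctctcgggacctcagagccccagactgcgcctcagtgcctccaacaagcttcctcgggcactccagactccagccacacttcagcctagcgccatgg
Nfkbia: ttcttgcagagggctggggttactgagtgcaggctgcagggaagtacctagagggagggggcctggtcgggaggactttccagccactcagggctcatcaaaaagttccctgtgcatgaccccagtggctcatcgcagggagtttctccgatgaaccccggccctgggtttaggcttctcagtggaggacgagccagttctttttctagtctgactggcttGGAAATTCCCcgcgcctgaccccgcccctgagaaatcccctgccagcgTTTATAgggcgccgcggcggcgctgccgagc
Ifnb1: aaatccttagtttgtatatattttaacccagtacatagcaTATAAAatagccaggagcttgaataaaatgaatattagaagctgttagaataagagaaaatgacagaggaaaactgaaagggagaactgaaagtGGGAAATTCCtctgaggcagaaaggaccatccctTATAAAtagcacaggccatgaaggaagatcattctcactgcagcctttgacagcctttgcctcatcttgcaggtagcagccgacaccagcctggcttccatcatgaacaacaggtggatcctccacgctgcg
Tnf: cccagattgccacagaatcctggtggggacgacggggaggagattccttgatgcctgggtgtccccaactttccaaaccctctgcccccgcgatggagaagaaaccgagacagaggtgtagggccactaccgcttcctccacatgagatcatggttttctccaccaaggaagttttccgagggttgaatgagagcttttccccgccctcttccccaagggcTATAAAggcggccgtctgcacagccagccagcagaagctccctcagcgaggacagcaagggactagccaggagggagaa
Il1b: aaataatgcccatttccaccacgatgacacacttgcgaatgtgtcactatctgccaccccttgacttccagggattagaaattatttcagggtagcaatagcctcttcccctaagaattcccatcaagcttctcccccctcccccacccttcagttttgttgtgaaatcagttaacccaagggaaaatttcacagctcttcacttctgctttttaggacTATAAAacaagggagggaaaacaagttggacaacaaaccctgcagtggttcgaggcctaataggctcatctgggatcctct
Txnip: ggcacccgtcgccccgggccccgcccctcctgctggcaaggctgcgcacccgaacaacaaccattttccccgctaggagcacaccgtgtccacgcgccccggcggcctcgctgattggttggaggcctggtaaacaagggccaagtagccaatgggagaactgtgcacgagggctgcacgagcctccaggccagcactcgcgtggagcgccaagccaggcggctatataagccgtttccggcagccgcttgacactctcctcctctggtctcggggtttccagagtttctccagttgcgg
The kB match of Cxcl2 is a pair of overlapping matches that begin 97 and 96 bases before the start. That of Nfkbia begins 29 bases and that of Ifnb1 116 bases before the start. The TATA match of Nfkbia is on the opposite strand and begins 19 bases after the start. Those of Ifnb1 begin 210 and 82 bases before it.

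RefSeq promoters were matched for 8808 of the 11531 tested genes, by symbol and chromosome. The kB motif, searched on both strands, stood in 19.1% of the 47 matched promoters of genes that rose by at least 4, in 14.2% for those that rose by at least 2, in 10.1% for all risen genes and in 3.86% for fallen genes, against 5.05% of all 8808. The AP-1 motif TGANTCA stood in 19.1%, 11.8%, 7.61% and 3.63% in the same order, against 5.03% of all. The TATA box TATAAA stood in 25.5%, 16.1%, 11.7% and 6%, against 7.05% of all. The cyclic AMP response element TGACGTCA stood in 10.6%, 5.21%, 3.64% and 2.71%, against 3.3% of all. The share with these 4 motifs thus grew with the size of the increase. The interferon response motif (GAAA, any 2 bases, GAAA) did not follow this order, at 4.26%, 6.64%, 5.45% and 2.88%, against 3.54% of all, and the GC box GGGCGG was in 44.7%, 58.3%, 65% and 62.5%, against 64.3% of all. The median observed over expected ratio of CpG was 0.399 in promoters of genes that rose by at least 4, 0.739 for all risen, 0.777 for fallen and 0.775 for all. Each motif was counted on its own, so matches of different motifs may overlap. These shares describe letters in a window and were not tested.

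Transcription factor genes of the immediate early kind rose as a group. These genes are turned on without new protein synthesis and encode factors that bind the promoters of later genes. All 10 AP-1 subunit genes tested rose (median 2.18), among them Junb (3.98 ± 0.18), Fosl2 (2.99 ± 0.12) and Atf3 (2.61 ± 0.11). The small MAF gene Maff, counted in this and the next list, had 203 and 215 TPM at 1 hr, against 1.59 and 2.06 TPM at rest (6.22 ± 0.13). Fos itself had 46.7 and 58.7 TPM at 1 hr, against 14.2 and 15.7 TPM at rest (1.74 ± 0.15), and Jun had 87.5 and 99.3 TPM at 1 hr, against 59.8 and 66.5 TPM at rest (0.56 ± 0.09), the smallest rise of the list. All 12 genes of the EGR, NR4A and IER families tested rose (median 2.68), with Egr3 (4.46 ± 0.13), Egr1 (3.95 ± 0.14), Egr2 (3.90 ± 0.15) and the orphan nuclear receptor gene Nr4a1 (3.87 ± 0.19) next after Maff. Of 11 KLF, ID and other early regulator genes 10 rose and 1 did not pass (median 2.13). Id3, which encodes an inhibitor of helix-loop-helix factors, had 115 and 128 TPM at 1 hr, against 1.47 and 2.97 TPM at rest (5.29 ± 0.43), and Myc had 58.2 and 58.6 TPM at 1 hr, against 2.91 and 3.03 TPM at rest (3.91 ± 0.13). Klf10 did not pass both scalings, with 7.03 and 6.86 TPM at 1 hr, against 11.5 and 11.2 TPM at rest (-0.64 ± 0.13, and -0.23 ± 0.13 on scaled TPM). For Fosl1 and Jund 57.2% and 52.6% of the exon length overlaps other genes, so their values are uncertain.

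Genes of NF-kB and of its inhibitors rose in the same hour. NF-kB is held in the cytoplasm by IkB proteins, whose genes are its own targets, which makes a negative feedback. Of 14 genes 11 rose, 1 fell and 2 did not pass (median 1.79). Nfkbia, which encodes IkB alpha, had 1828 and 1883 TPM at 1 hr, against 103 and 105 TPM at rest (4.14 ± 0.07). The nuclear IkB gene Nfkbiz, needed for a second set of inflammatory genes, had 987 and 1009 TPM at 1 hr, against 23.1 and 16.3 TPM at rest (5.61 ± 0.13). Among the subunit genes Rel (3.50 ± 0.09) rose most, followed by Nfkb2 (1.92 ± 0.11), Rela (1.47 ± 0.12), Relb (1.22 ± 0.12) and Nfkb1 (1.14 ± 0.08). The kinase complex that frees NF-kB did not move with them: its scaffold gene Ikbkg had 8.7 and 8.76 TPM at 1 hr, against 17.7 and 17.3 TPM at rest (-0.93 ± 0.10, a decrease), while Chuk (-0.09 ± 0.11, limma adjusted p = 0.485, and 0.34 ± 0.10 on scaled TPM) and Ikbkb (-0.29 ± 0.09, and 0.15 ± 0.09 on scaled TPM) did not pass.

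Feedback inhibitor genes and phosphatase genes were among the most induced outside the cytokines. Of 19 feedback inhibitor genes 17 rose, 1 fell and 1 did not pass (median 2.99), and without resting replicate 2 the fallen count was 2. Socs3, an inhibitor of cytokine receptor signalling, had 1607 and 1801 TPM at 1 hr, against 11.5 and 11.5 TPM at rest (7.09 ± 0.09). Tnfaip3 encodes the ubiquitin-editing enzyme A20 and had 1335 and 1368 TPM at 1 hr, against 23.2 and 17.7 TPM at rest (5.99 ± 0.11). Zfp36 encodes tristetraprolin, which marks cytokine mRNAs with AU-rich tails for decay, and had 2474 and 2974 TPM at 1 hr, against 117 and 128 TPM at rest (4.46 ± 0.10). Its relative Zfp36l2 went the other way, with 33.1 and 43.4 TPM at 1 hr, against 142 and 156 TPM at rest (-1.94 ± 0.12). Of 10 dual-specificity phosphatase genes, which switch off MAP kinases, 6 rose and 4 did not pass (median 2.40); without 1 hr replicate 1, 1 fell. Dusp1 had 1482 and 1669 TPM at 1 hr, against 8.51 and 11.8 TPM at rest (7.16 ± 0.13), and Dusp2 had 375 and 377 TPM at 1 hr, against 1.97 and 2 TPM at rest (6.98 ± 0.12). Outside the lists, Errfi1, an inhibitor of EGF receptor signalling, had 920.3 and 918 TPM at 1 hr, against 3.82 and 3.66 TPM at rest (7.60 ± 0.09), and Mir155hg, the host transcript of miR-155, had 136 and 113 TPM at 1 hr, against 0 and 0.383 TPM at rest (6.73 ± 0.17).

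The receptor and its proximal signalling genes moved in both directions. Of 22 tested genes 8 rose, 3 fell and 11 did not pass (median 0.15). The risen share was above the 9.9% of all tested genes, and the fallen share was under the 19.2%. Tlr4 itself fell, with 19.9 and 19.9 TPM at 1 hr, against 40.3 and 36.4 TPM at rest (-0.91 ± 0.11), as did the adaptor gene Tirap (-1.12 ± 0.14) and the kinase partner gene Tab1 (-1.47 ± 0.18). Cd14, which encodes the protein that hands lipid A to the receptor, rose, with 2722 and 2764 TPM at 1 hr, against 419 and 387 TPM at rest (2.77 ± 0.08). The signalling genes Traf1 (4.05 ± 0.14), Ripk2 (3.30 ± 0.10), Peli1 (2.88 ± 0.10) and Irak2 (2.06 ± 0.10) rose as well. Of 14 other pattern receptor genes 4 rose, 2 fell and 8 did not pass, again a fallen share under that of all tested genes. All 14 were higher in resting replicate 1 than in resting replicate 2, by a median of 0.34 on the log2 scale, against 0.06 for all tested genes, and the part of this in the result was not tested. The lectin receptor gene Clec4e (3.58 ± 0.10) and Tlr2 (2.53 ± 0.11), which recognises bacterial lipoproteins, rose, while the endosomal nucleic acid receptors Tlr8 (-0.83 ± 0.12) and Tlr9 (-0.99 ± 0.11) fell. The call of Tlr8 was lost without 1 hr replicate 1 and without resting replicate 1, which left 1 fallen gene in each case.

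Interferon response genes changed in part at 1 hr. Of 37 tested genes 12 rose, 4 fell and 21 did not pass (median -0.36, near that of all genes). With all 4 libraries the risen share was above the 9.9% of all tested genes, and the fallen share was under the 19.2%. The guanylate-binding protein gene Gbp5 had 401 and 352 TPM at 1 hr, against 73.4 and 45.1 TPM at rest (2.69 ± 0.18), and the RNA sensor gene Ifih1 had 203 and 144 TPM at 1 hr, against 43.6 and 26.3 TPM at rest (2.30 ± 0.23). Irf1 and the antiviral gene Rsad2 rose as well (2.13 ± 0.09 and 1.69 ± 0.19). Among the genes that fell, Stat2, a signal transducer of the interferon receptor, had 43.7 and 46.1 TPM at 1 hr, against 135 and 97.2 TPM at rest (-1.33 ± 0.13). The resting spread was wide here. Ifit2 had 355 and 381 TPM at 1 hr, against 432 and 210.1 TPM at rest (0.29 ± 0.30, limma adjusted p = 0.429), so that both 1 hr libraries lay between the resting ones. Without 1 hr replicate 1, 11 rose and 2 fell, without resting replicate 1, 14 rose and 2 fell, and without resting replicate 2, 11 rose and 13 fell. The number of decreases in this list therefore rested on which resting library was used, while the number of increases stayed between 11 and 14 over all 4 libraries left out in turn.

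Genes usually described as late in the response had begun to rise. Of 24 tested, 18 rose and 6 did not pass (median 1.34). Il12b, counted among the cytokine genes above, is in this list too. Acod1, which encodes the enzyme that makes itaconate, had 1387 and 1392 TPM at 1 hr, against 15.5 and 11 TPM at rest (6.63 ± 0.13), and the costimulatory receptor gene Cd40 had 342 and 351 TPM at 1 hr, against 14.9 and 11.2 TPM at rest (4.64 ± 0.11). The inducible nitric oxide synthase gene Nos2 was still low, with 2.53 and 1.59 TPM at 1 hr, against 0.21 and 0.127 TPM at rest (1.37 ± 0.15). In the 4 hr library it was at 501 TPM. Among 11 genes of prostaglandin and leukotriene synthesis 3 rose, 1 fell and 7 did not pass. Ptgs2, the inducible cyclooxygenase gene, had 197 and 205 TPM at 1 hr, against 0 and 0.181 TPM at rest (7.54 ± 0.10), while the constitutive form Ptgs1 had 17.8 and 17.9 TPM at 1 hr, against 38.5 and 34.5 TPM at rest (-0.99 ± 0.17), a call that was lost with any 1 library left out; without resting replicate 1 another gene of the list, Ptges2, was called lower. The inflammasome list had 14 tested genes, of which 3 rose, 1 fell and 10 did not pass. The sensor gene Nlrp3 had 658 and 659 TPM at 1 hr, against 44.1 and 44.8 TPM at rest (3.86 ± 0.07), Casp4 (1.80 ± 0.13) and Mefv (2.53 ± 0.13) rose, and the adaptor gene Pycard (-0.88 ± 0.09) fell. Without resting replicate 1, 5 inflammasome genes rose, and without resting replicate 2, 2 fell. The fallen shares of the prostaglandin and inflammasome lists were under the 19.2% of all tested genes, and their risen shares above the 9.9%.

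Stress and metabolic genes changed in part. Of all tested genes 9.9% rose and 19.2% fell. The fallen share of each list in this paragraph was under that of all genes. The risen share was above that of all genes except for the LXR targets, where it was under it. Of 13 heat shock genes 8 rose and 5 did not pass (median 0.63), with the cochaperone gene Dnajb4 (3.05 ± 0.11) highest and the endoplasmic reticulum chaperone gene Hspa5 (0.54 ± 0.11) lowest among the risen; without resting replicate 1, 1 fell. Of 15 NRF2 targets 4 rose, 1 fell and 10 did not pass; without 1 hr replicate 1 the fallen count was 0. The cystine transporter gene Slc7a11 had 24.2 and 21.7 TPM at 1 hr, against 0.517 and 0.506 TPM at rest (3.98 ± 0.12), and Txnrd1 (2.22 ± 0.08) and the autophagy receptor gene Sqstm1 (2.19 ± 0.07) rose as well. Of 18 genes of glycolysis and glucose uptake 6 rose, 1 fell and 11 did not pass, and without resting replicate 1 the fallen count was 2. The risen genes were the glucose transporters Slc2a1 (2.27 ± 0.12) and Slc2a6 (1.76 ± 0.11), the regulators Pfkfb3 (1.56 ± 0.12), Hk2 (1.14 ± 0.07) and Pfkp (0.30 ± 0.10) and the lactate exporter Slc16a3 (0.82 ± 0.15). The small change of Pfkp was not called without 1 hr replicate 1 or without resting replicate 2. Gapdh, at 0.778 and 0.304 TPM at 1 hr against 0.785 and 0.509 TPM at rest, and Eno1 have near-identical copies in the genome that can take their reads, so their values are uncertain. Of 23 sterol synthesis genes 6 rose, 2 fell and 15 did not pass. The fallen count was 0 without 1 hr replicate 1 and without resting replicate 2. Insig1, a brake on sterol synthesis, had 133 and 128 TPM at 1 hr, against 37.4 and 41.7 TPM at rest (1.70 ± 0.10). Of 12 LXR targets 1 rose, 1 fell and 10 did not pass, and the cholesterol exporter gene Abcg1 (-1.30 ± 0.16) was the fallen gene.

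**Figure D3:**
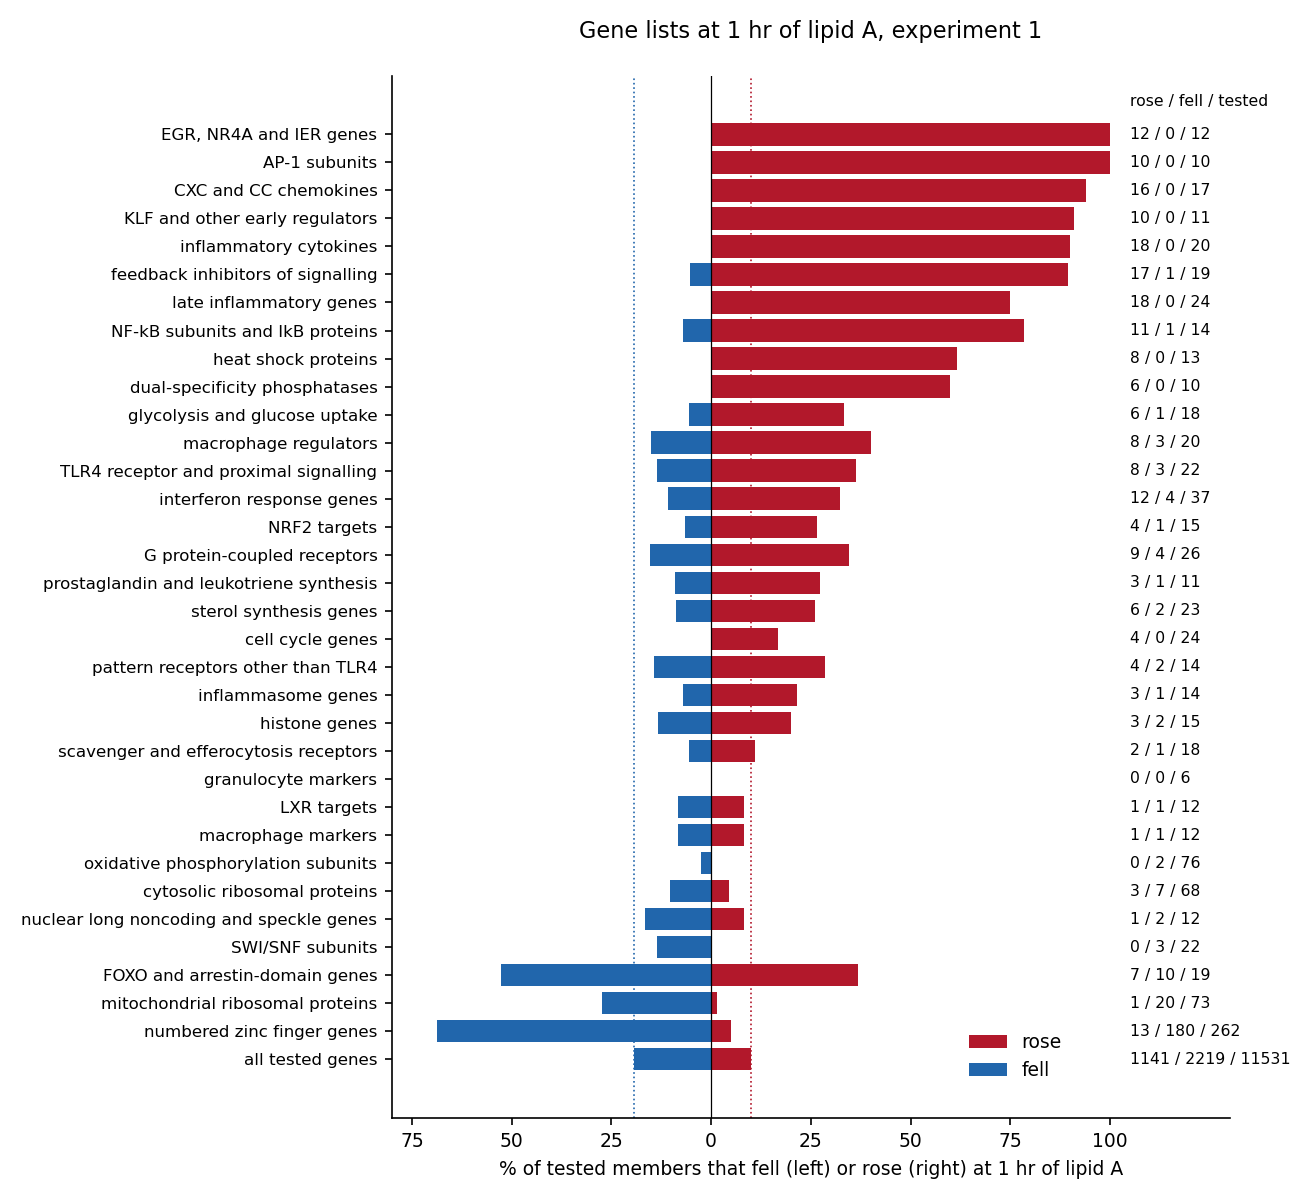
Horizontal bars give the percent of tested members of each list that rose (red, right) or fell (blue, left) at 1 hr of lipid A, with the counts beside them, for lists with at least 6 tested members. Dotted lines mark the 9.9% and 19.2% of all tested genes. The early transcription factor, chemokine and cytokine lists lie at the top with 0 fallen members, and the numbered zinc finger genes show the largest fallen share, 180 of 262.

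Among the decreases were genes that link nutrient state to growth. Txnip, which encodes an arrestin-like protein that restrains glucose uptake and thioredoxin, lies at chr3:96557957-96561857 (plus strand) and had 14.8 and 11.5 TPM at 1 hr, against 632 and 601 TPM at rest (-5.45 ± 0.11). Gm15441, a gene on the opposite strand that overlaps it, had 4.44 and 3.31 TPM at 1 hr, against 189 and 169 TPM at rest (-5.21 ± 0.15). Because reads were counted on both strands, the 2 cannot be told apart where they overlap (19.4% of Txnip exons). Bmf, a promoter of cell death, had 0.853 and 1.03 TPM at 1 hr, against 29.2 and 26.6 TPM at rest (-3.90 ± 0.14), and the arrestin-domain gene Arrdc3 had 3.6 and 2.2 TPM at 1 hr, against 40.5 and 36.7 TPM at rest (-3.37 ± 0.19). Of 19 FOXO and arrestin-domain genes 7 rose, 10 fell and 2 did not pass (median -1.03). Arrdc2 (-2.47 ± 0.19), Sesn1 (-2.12 ± 0.14), Pik3ip1 (-1.90 ± 0.21), Sik1 (-1.80 ± 0.14) and the transcription factor genes Foxo3 (-1.58 ± 0.15) and Foxo1 (-1.03 ± 0.13) fell. Cited2 (1.95 ± 0.13), the insulin receptor substrate gene Irs2 (1.92 ± 0.18) and Ddit4 (1.34 ± 0.20) from the same list rose, the last not called with a pseudocount of 0.1.

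Single regulator and receptor genes of resting macrophages fell. The 3 of 20 macrophage regulators and 4 of 26 G protein-coupled receptor genes that fell are shares not above the 19.2% of all tested genes. Tsc22d3, the glucocorticoid-induced leucine zipper gene, had 10.1 and 9.91 TPM at 1 hr, against 100.1 and 109.6 TPM at rest (-3.26 ± 0.12), and the homeobox gene Hhex had 3.94 and 4.72 TPM at 1 hr, against 41.3 and 34.2 TPM at rest (-2.86 ± 0.12). Of 20 macrophage regulator genes 8 rose, 3 fell and 9 did not pass. Cebpa, a factor of myeloid differentiation, had 17.2 and 19.1 TPM at 1 hr, against 67.3 and 94 TPM at rest (-2.07 ± 0.17), while its relative Cebpb had 142 and 198 TPM at 1 hr, against 30.3 and 65.7 TPM at rest (1.88 ± 0.36), a call that was lost when the compared groups were fitted alone. Among the lineage factor genes, Maf (-1.17 ± 0.11) and Irf8 (-0.90 ± 0.08) also fell, and without resting replicate 1 the number of fallen regulators was 5. Of 26 G protein-coupled receptor genes 9 rose, 4 fell and 13 did not pass. The adenosine receptor gene Adora2b (4.16 ± 0.10), the metabolite receptor genes Hcar2 (4.14 ± 0.14) and Gpr84 (3.92 ± 0.12) and the complement receptor gene C5ar1 (1.73 ± 0.08) rose. The chemokine receptor gene Cxcr4 had 32.5 and 32.7 TPM at 1 hr, against 134 and 125 TPM at rest (-1.95 ± 0.17). Among the other fallen genes, Ccr2 (-0.94 ± 0.19) and Gpr34 (-0.88 ± 0.15) were not called without 1 hr replicate 1, and the fallen count of the list was 2 without 1 hr replicate 2 or without resting replicate 1. Outside the list, the lipid and cannabinoid receptor genes Lpar6 (-3.02 ± 0.18), Cnr2 (-2.73 ± 0.16) and S1pr2 (-2.67 ± 0.11) and the G protein-coupled receptor gene Gpr146 (-2.72 ± 0.19) were among the 15 largest decreases. That set further held the noncoding RNA gene Snhg20 (-3.13 ± 0.26), AI467606 (-3.32 ± 0.19), the zinc finger gene Zkscan14 (-2.89 ± 0.15), and Mir3064 (-3.45 ± 0.82), which lies wholly within Ddx5 and whose reads cannot be told from it; its call was lost with either resting library left out.

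Genes named as zinc finger proteins by number fell more often than any other list with at least 6 tested members. They encode mostly DNA-binding proteins with tandem zinc fingers, many of them with a repressor domain. Of 262 tested, 13 rose, 180 fell and 69 did not pass, a fallen share of 68.7% against 19.2% of all genes, with a median log2 change of -1.11 against -0.38. The levels of those named were low. Zfp688 had 1.43 and 1.14 TPM at 1 hr, against 11.8 and 16.4 TPM at rest (-2.71 ± 0.19), Zfp120 had 3.01 and 2.48 TPM at 1 hr, against 15.8 and 15.5 TPM at rest (-2.15 ± 0.14), and Zfp12 had 0.621 and 0.521 TPM at 1 hr, against 7.1 and 5.24 TPM at rest (-2.18 ± 0.15). The groups were apart in each case, and 149 to 162 fell when any 1 of the 4 libraries was left out. The 13 that rose include Zfp36, an RNA-binding protein of another family, Zfp263 (1.90 ± 0.09), Zfp131 (1.88 ± 0.12) and Zfp281 (1.46 ± 0.12). The decreases were physically clustered: 12 of them followed each other on chromosome 13 with no other tested gene between (chr13:67440431-67827000, mm10, Zfp874a to Zfp273), and runs of 8 lay on chromosome 17 (chr17:32965831-33394637) and chromosome 7 (chr7:29893337-30107614). Clustered zinc finger genes resemble each other in sequence, so some reads may be shared between them.

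More mitochondrial ribosomal protein genes fell than rose, as was so for all tested genes, of which 9.9% rose and 19.2% fell. Their fallen share was above that of all genes. The fallen shares of the oxidative phosphorylation, cytosolic ribosomal protein and SWI/SNF lists below were under it. Of 73 mitochondrial ribosomal protein genes 1 rose, 20 fell and 52 did not pass (median -0.63; 2 rose with either resting library left out), with 5.74 and 4.16 TPM at 1 hr, against 21 and 23.2 TPM at rest for Mrpl44 (-1.97 ± 0.14). Of 76 oxidative phosphorylation subunit genes 2 fell and 74 did not pass (median -0.39), where TPM as deposited alone would have called 51 lower and scaled TPM alone 15 higher. Without resting replicate 1, 7 fell, and without 1 hr replicate 2, 1 fell. Of 68 cytosolic ribosomal protein genes 3 rose, 7 fell and 58 did not pass (median -0.33), and without resting replicate 1 the number that fell was 13. Without 1 hr replicate 1, 5 rose, and without resting replicate 2, 7 rose. Many cytosolic ribosomal protein genes have processed copies in the genome, which makes their levels uncertain. Of 22 SWI/SNF subunit genes, the complex the series perturbs elsewhere, 3 fell and 19 did not pass. Arid1a had 16.7 and 18.9 TPM at 1 hr, against 39.5 and 39 TPM at rest (-1.10 ± 0.09), and Smarcd1 (-0.98 ± 0.13) and Bcl7a (-0.83 ± 0.22) fell, the last not called without 1 hr replicate 1, without 1 hr replicate 2 or without resting replicate 2. No subunit gene rose (0 of 22, limma; 0 at an unadjusted p under 0.05, and 0 by voom on recovered reads), and without 1 hr replicate 2, 1 rose. Scaled TPM alone gave 6 higher subunit genes, and TPM as deposited alone 13 lower. The ATPase genes Smarca4 (-0.23 ± 0.09, and 0.20 ± 0.10 on scaled TPM) and Smarca2 (0.08 ± 0.14, limma adjusted p = 0.658) did not pass.

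Most macrophage markers did not pass the test on both scalings. Of 12 macrophage markers, Cd14 rose, Fcgr1 fell (-0.87 ± 0.14, lost without 1 hr replicate 1 and without resting replicate 1) and 10 did not pass. On TPM as deposited alone 9 of the 12 were lower. The fallen count was 2 without 1 hr replicate 2. The 10 granulocyte markers summed to 78 and 59.5 TPM at 1 hr, against 64.9 and 70.7 TPM at rest, and of 6 tested limma called 0 in either direction (0 at an unadjusted p under 0.05, and 0 by voom on recovered reads). Lymphocyte markers summed to 4.08 and 2.94 TPM at 1 hr, against 7.29 and 6.8 TPM at rest, with Cd3e listed at 0 in all 4 libraries, and dendritic cell markers to 21.2 and 16.8 TPM at 1 hr, against 20.9 and 16.4 TPM at rest. In bulk RNA fewer cells of a type and less RNA per cell cannot be told apart. Of 24 cell cycle genes 4 rose and 20 did not pass. The proliferation marker gene Mki67 had 116 and 109 TPM at 1 hr, against 10.5 and 9.25 TPM at rest (3.39 ± 0.09). Of the 24, 22 were higher in 1 hr replicate 1 than in replicate 2, by a median of 0.42, and without replicate 1 the list counted 3 risen and 2 fallen genes. Without resting replicate 1 it counted 2 risen genes.

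The genes that changed strongly were short. The length from first to last exon had a median of 6562 bases in genes that rose by at least 4, 10850 in those that rose by at least 2 and 17934 in all risen genes. It was 6703 in genes that fell by at least 2 and 14588 in all fallen genes, against 19089 in all tested genes. Of the 69 genes that rose by at least 4, 0 spanned over 100 kb. Of the 1026 tested genes over 100 kb, 2.34% fell and 6.63% rose, against 25.4% and 9.31% of genes of 10 to 20 kb. Neighbours also moved together: 35% of risen genes had a risen gene as their next tested neighbour on the chromosome, against 18.2% of all tested genes, and 44.8% of fallen genes had a fallen neighbour, against 33.7%. Runs of risen genes included Slc20a1, Ckap2l, Gm14023, Il1a, Il1b and Il1bos on chromosome 2 (chr2:129198773-129375733, mm10) and 6 H2-Q class I genes on chromosome 17 (chr17:35379617-35443773), whose sequences resemble each other.

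**Figure D4:**
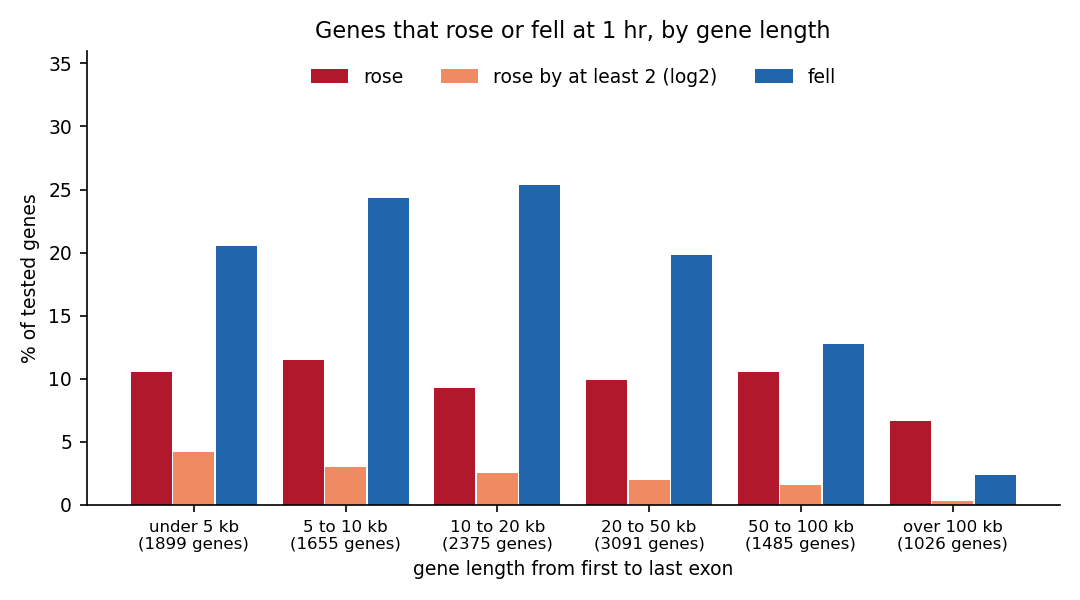
Bars give the percent of tested genes in each class of gene length, from first to last exon, that rose, rose by at least 2 on the log2 scale, or fell at 1 hr of lipid A. The share that fell is 25.4% at 10 to 20 kb and 2.34% over 100 kb, and the share that rose by at least 2 is 4.21% under 5 kb and 0.292% over 100 kb.

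Many of these levels were different 3 hr later. The same experiment holds control cells at 4 hr of lipid A, of which 1 library was used, so the values are given with no test, and the median of all tested genes there lay 0.45 below the 1 hr mean and 0.84 below the resting mean on the log2 scale. Of the 1141 risen genes, 222 were higher by at least 1 on the log2 scale at 4 hr than in both 1 hr libraries and 337 were lower by as much. Of the 278 that rose by at least 2, 151 were lower and 35 higher. Risen genes were chosen for high values in the same 2 libraries at 1 hr, so lower values at 4 hr are partly built in. The share of all tested genes that were lower by this measure was not counted. Most early factors had come down from 1 hr: 11 of the 12 risen EGR, NR4A and IER genes and 7 of the 10 AP-1 genes were lower at 4 hr by the same measure. Not all were back at rest. At 4 hr, 4 of the 10 AP-1 genes and 1 of the 12 others were still at least 1 above both resting libraries, and 1 AP-1 gene was higher than at 1 hr. Id3 was at 1.47 and 2.97 TPM at rest, 115 and 128 TPM at 1 hr and 1.14 TPM at 4 hr, and Ifnb1 was at 1.04 and 0.21, 434 and 478 and 10.5 TPM at the same times. In contrast 11 of the 12 risen interferon response genes and 15 of the 18 risen late inflammatory genes were higher still at 4 hr by at least 1, and the 4 interferon response genes that had fallen were all higher at 4 hr than at 1 hr. Of the 2219 fallen genes 1469 (66.2%) were at least 1 below both resting libraries at 4 hr, against 40.8% of all tested genes. Of the 1242 that had fallen by at least 1 at 1 hr, 876 were. Of the 180 fallen zinc finger genes 93 (51.7%) were that far below rest at 4 hr, against 110 (42%) of the 262 tested zinc finger genes. The fallen genes were chosen against the same 2 resting libraries, so an excess of fallen genes below rest at 4 hr is partly built in.

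**Figure D5:**
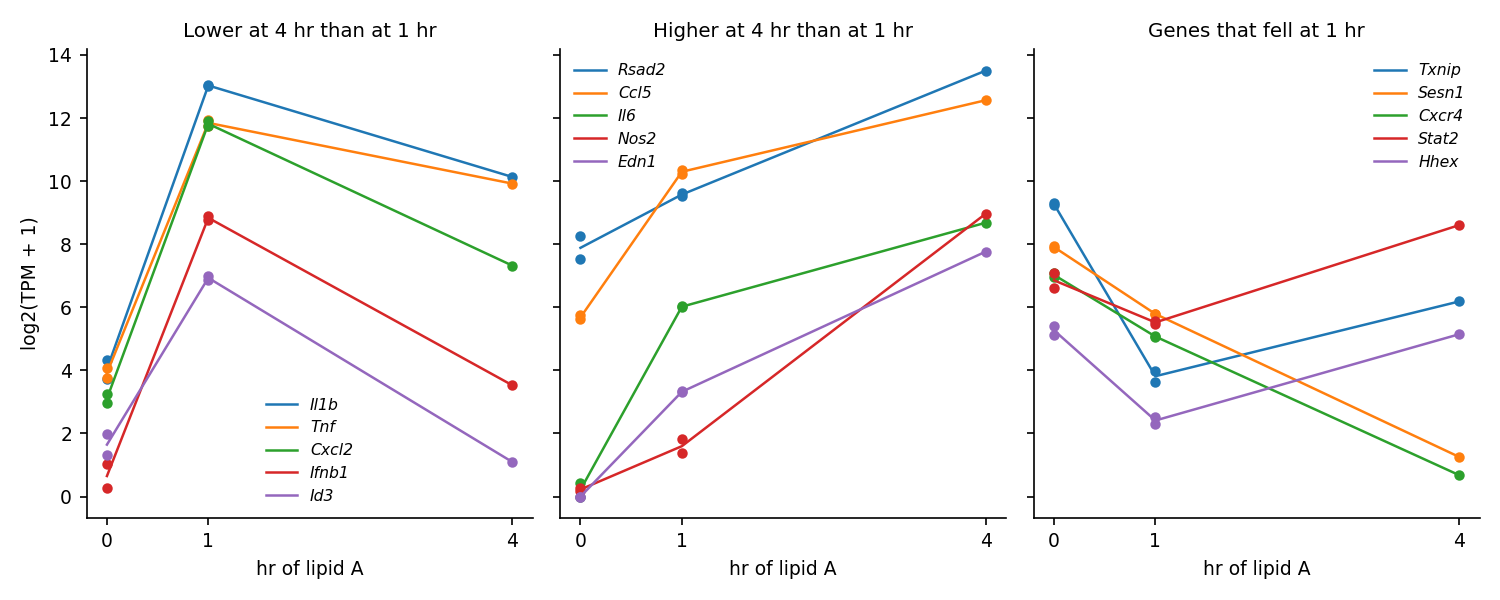
The y axis gives log2(TPM + 1) and the x axis 0, 1 and 4 hr of lipid A in control cells of experiment 1, with a point per library (2 at 0 hr, 2 at 1 hr and 1 at 4 hr) and lines through the means. Il1b, Tnf, Cxcl2, Ifnb1 and Id3 are lower at 4 hr than at 1 hr, Rsad2, Ccl5, Il6, Nos2 and Edn1 are higher, and among genes that fell Txnip, Stat2 and Hhex are higher at 4 hr than at 1 hr (Txnip, at 71.9 TPM, is below its resting level), while Sesn1 and Cxcr4 are lower still.

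The series holds 2 further comparisons of stimulated with resting control macrophages, which share no library with this one and stand in tables of their own, so no test was made across them. In experiment 4 these are WT control cells at 60 min against 0 min of lipid A. There 7.47% of 11549 tested genes rose and 18.1% fell by the same rule. In experiment 2 they are Arid1a f/f control cells at 1 hr against 0 hr of LPS. There 13.6% of 11798 rose and 20.2% fell. Of 10865 genes tested in both experiments 1 and 4, 647 rose in both, which is 60.8% of those risen in experiment 1 and 78.6% of those risen in experiment 4. A further 1323 fell in both (62.1% and 67.1%). With LPS, 804 rose in both (73.8% of experiment 1 and 53.8% of experiment 2) and 1386 fell in both (65.1% and 61%). Pearson's r of the log2 changes across genes was 0.857 with experiment 4 and 0.844 with experiment 2, as a description, since genes are not independent replicates. All 3 comparisons called 583 genes higher and 1047 lower. Of 81 genes risen at 20 min in experiment 4 (0.736% of tested genes rose there, and 1.08% were called in either direction), 62 were risen at 1 hr here.

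Some changes differed in size between the experiments, and these differences were not tested. Il1b changed by 8.99 ± 0.16 here, 7.80 ± 0.13 in experiment 4 and 9.60 ± 0.16 in experiment 2. Ifnb1 changed by 8.18 ± 0.24, 9.40 ± 0.15 and 5.42 ± 0.19 in the same order, and Il6 by 5.80 ± 0.15, 5.38 ± 0.14 and 2.67 ± 0.11. Ccl2 had its largest change in experiment 2, at 6.56 ± 0.19, 5.93 ± 0.08 and 10.46 ± 0.44, where its resting level was lowest. It had 6435 and 6507 TPM at 1 hr of LPS, against 6.74 and 1.73 TPM at rest there. In experiment 1 it had 4875 and 5566 TPM at 1 hr, against 65.2 and 44.8 TPM at rest. Cells and stimulus both differ between experiments 1 and 2, so the part of each cannot be told apart. Experiments 1 and 4 are both labelled as WT cells with lipid A. Of the zinc finger genes 188 of 261 fell in experiment 4 and 190 of 272 in experiment 2, beside 180 of 262 here, and -5.45 ± 0.11, -4.38 ± 0.13 and -4.40 ± 0.08 were the changes of Txnip. Some lists did not share calls in this way. Of cytosolic ribosomal protein genes 3 rose and 7 fell here, and 8 rose and 0 fell in experiment 4. In experiment 2, 0 rose and 0 fell of 69 (limma, with 1 higher and 0 lower at an unadjusted p under 0.05). Interferon response genes counted 12 risen and 4 fallen here, 4 and 4 in experiment 4, and 12 and 7 in experiment 2. Risen cell cycle genes numbered 4 of 24, 2 of 25 and 17 of 25 in the same order. Risen oxidative phosphorylation genes numbered 0 of 76, 0 of 75 and 12 of 75. Nos2 rose here (1.37 ± 0.15) but did not pass in experiment 4 (0.04 ± 0.11) or experiment 2 (0.07 ± 0.11). In the authors' deposited table for the same contrast 1733 genes are higher and 1215 lower at an adjusted p under 0.05, and the authors' deposited table also calls 93.3% of the genes risen here and 53.9% of those fallen, with 0 in the opposite direction.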

How the data were processed

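RNA of mouse BMDMs was measured in 11 libraries of experiment 1, of which 4 form the comparison, 2 libraries at 1 hr of lipid A and 2 at rest. The tools were STAR 2.5.3a, HOMER and DESeq2 and the build mm10, per the submitters' processing notes. The deposited TPM tables hold reads per exon length scaled within each library, made with HOMER and counted on both strands per the file headers. The authors' deposited table also gives a log2 fold change and an adjusted p-value per gene for this contrast, which was read only for the counts credited to it. Of the columns of experiment 1, 1 repeats the 4 hr control column in all 24537 genes and was not used.

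Reads were recovered from TPM and exon length and came to 7015041 to 21284161 per library of the comparison, and the floors of 3 reads cover counting error only. The 11531 genes with at least 1 TPM in at least 2 of the 11 libraries were fitted with limma 3.58.1 in R 4.3.3 on log2(TPM + 1), using robust moderation with an intensity trend, all groups of the table sharing 1 estimate of the spread, and Benjamini-Hochberg adjustment over all tested genes. Every adjusted p printed is limma's. A gene was called where the adjusted p was under 0.05 with the same sign before and after median-ratio scaling, and experiments 2 and 4 were fitted alone in the same way. The fit was tested on simulated data. The members and lists were chosen with earlier results of these data known. Genes named are the 15 largest increases and the 15 largest decreases at 10 TPM or more, no more than 6 changed genes per list from 5 TPM upward, with some that did not pass, a few reference genes, and some further members added after their values were seen. Alternatives were another pseudocount, no filter, each scaling alone, a minimum change, other moderation, voom on recovered reads, a replicate block, the compared groups alone, and each library left out.
Results for a few genes are not reported here.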

Additional observations from a re-analysis of the deposited data

Results flagged for a closer look

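A few genes moved in opposite directions in the comparisons of experiments 1 and 4, in every library of each, although the labels describe both as lipid A for the same time. The difference between experiments was not tested. Rpl39, a cytosolic ribosomal protein gene with processed copies, had 18.3 and 14.1 TPM at 1 hr, against 74.1 and 98.1 TPM at rest in experiment 1 (-2.34 ± 0.20) and 67.6 and 65.5 TPM at 60 min, against 50.6 and 38.9 TPM at 0 min in experiment 4 (0.57 ± 0.18). Rpl37a changed by -1.46 ± 0.27 in experiment 1 and 0.46 ± 0.19 in experiment 4, and Rpl7a by -1.02 ± 0.15 and 0.58 ± 0.12. Their calls in experiment 1 were each lost without resting replicate 2, and also without 1 hr replicate 2 for Rpl37a and without 1 hr replicate 1 for Rpl7a. Plekhf1, which encodes an endosomal protein, had 10.2 and 8.91 TPM at 1 hr, against 2.94 and 2.43 TPM at rest in experiment 1 (1.52 ± 0.17) and 0.651 and 0.292 TPM at 60 min, against 1.9 and 2.65 TPM at 0 min in experiment 4 (-1.16 ± 0.15). Trpt1, a tRNA phosphotransferase gene, changed by -1.45 ± 0.22 in experiment 1 and 0.69 ± 0.13 in experiment 4. In all, 8 genes risen in experiment 1 fell in experiment 4 and 7 fallen genes rose there, beside the 647 that rose and 1323 that fell in both.

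Genes outside the comparison carried signal in a single library. In 1 hr replicate 1, Sparc stood at 118 TPM, Bgn at 117 TPM, Col1a1 at 56.2 TPM and Bmp4 at 51.7 TPM, against at most 0.101 TPM for any of these in the other 3 libraries of the comparison. In the other 7 libraries of the table the highest level of any of these was 0.35 TPM. These encode matrix proteins and a secreted growth factor of connective tissue and epithelia. They did not pass the filter on low values. The 148 genes high in that library alone together held 0.283% of its listed TPM.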

How the results depend on the processing

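Beside the 1141 risen and 2219 fallen genes, TPM as deposited alone gave 1142 and 6123, scaled TPM alone 2509 and 2219, and a minimum change of 1 on the log2 scale 566 and 1242. With a pseudocount of 0.1 the counts were 1131 and 2041, with no filter 1186 and 2088, by voom on recovered reads 1208 and 2617, and with the compared groups alone 987 and 1797. With 1 library left out they were 960 to 1212 risen and 1705 to 1850 fallen. Of genes shared with 60 min of lipid A in experiment 4, 647 rose and 1323 fell. Scaled TPM alone gave 1298 risen, TPM as deposited alone 4598 fallen, a minimum change of 1 gave 345 and 473, and leaving out 1 library gave 604 to 636 and 1081 to 1162. Of genes shared with 1 hr of LPS in experiment 2, 804 rose and 1386 fell. The same alternatives gave 1256 risen, 3048 fallen, 407 and 435, and 731 to 806 and 1122 to 1231. The single scalings ask for 1 test in place of both and the minimum change for a larger one. For the other alternatives the cause was not tested. Same-numbered libraries deviated together with r = 0.075 over genes, so the numbers were not taken to pair them; with a replicate block 1167 genes rose and 2323 fell. Chuk changed direction between scalings, with a change of -0.09 on TPM as deposited and 0.34 on scaled TPM, called higher there alone (adjusted p = 0.0229). Of 154 named genes that were called, 138 were called in the same direction under every alternative other than the minimum change, 13 lost the call under some of them (Bcl7a, Ccr2, Cd79b, Cebpb, Ddit4, Fcgr1, Gpr34, Mir3064, Pfkp, Ptgs1, Rpl37a, Rpl7a and Tlr8), and 3 were not tested in all. With 2 libraries a group and a depth of 7015041 reads in the shallowest, a gene that did not pass is not shown to be unchanged, and genes below the floor of 3 reads were not detectable.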

Other observations

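Some smaller groups were measured as well. In the scavenger, histone and speckle lists the fallen share was under the 19.2% of all tested genes. Of 18 scavenger and efferocytosis receptor genes, 2 rose, 1 fell and 15 did not pass; the fallen count was 0 without 1 hr replicate 1. Olr1, which encodes a receptor for oxidised lipoprotein, had 28.9 and 23.8 TPM at 1 hr, against 0 and 0.045 TPM at rest (4.74 ± 0.13), and the macrophage scavenger receptor gene Msr1 had 232 and 232 TPM at 1 hr, against 131 and 103 TPM at rest (0.99 ± 0.11). Of 15 histone genes, 3 rose, 2 fell and 10 did not pass; the fallen count was 1 without 1 hr replicate 2. H3f3b, which encodes the replacement histone H3.3, had 528 and 525 TPM at 1 hr, against 125 and 128 TPM at rest (2.04 ± 0.10), while Hist3h2a had 17.4 and 22.6 TPM at 1 hr, against 45.2 and 65.6 TPM at rest (-1.41 ± 0.18). Histone genes resemble each other, and most of their mRNAs lack the poly(A) tail that the library selects, so these levels are uncertain. Of 12 nuclear noncoding and splicing speckle genes, 1 rose, 2 fell and 9 did not pass, with 25.8 and 19.6 TPM at 1 hr, against 66.8 and 51.3 TPM at rest for the splicing factor gene Luc7l3 (-1.34 ± 0.15). The risen count of these was 2 without 1 hr replicate 2 or without resting replicate 2, and the fallen count was 3 without resting replicate 2. Among rare cell markers, the dendritic cell receptor gene Xcr1 rose (0.83 ± 0.15) and the B cell receptor gene Cd79b fell (-1.05 ± 0.16), with levels of 2.79 and 2.83 TPM at 1 hr, against 7.14 and 6.64 TPM at rest for Cd79b, which was not called with a pseudocount of 0.1.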
